A study of Mus musculus with 8 samples.

Results

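The 10 genes described here carry peptides from the cytosol to the cell surface on major histocompatibility complex (MHC) class I, or regulate that route: the heavy chains H2-K1 and H2-D1, the light chain B2m, the peptide transport and loading genes Tap1, Tap2 and Tapbp, the immunoproteasome subunits Psmb8, Psmb9 and Psmb10, and Nlrc5. They were chosen by name, for their roles, and all 10 were among the 24972 genes of the deposited table. RNA sequencing measured total RNA of primary mouse embryonic fibroblasts (MEFs), connective tissue cells grown out of whole embryos, here taken at embryonic day 14 and carried through 2 passages without treatment. The 4 genotypes had 2 libraries each: WT; Tfam+/-, in which 1 of the 2 alleles of Tfam is lost; Zbp1-/-, which lacks Zbp1; and Tfam+/-Zbp1-/-, which carries both changes. All 4 were grown alike, in DMEM with 10% fetal bovine serum. The product of Tfam coats mitochondrial DNA and is needed for its transcription, and Zbp1 encodes an innate immune sensor of Z-form nucleic acids. The sources used here give neither the mouse strain nor the way each allele was made, nor whether separate embryos gave the 2 libraries of a genotype. If not, the p-values measure only the spread between these libraries, which may be technical.

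MHC class I molecules show fragments of a cell's own proteins to CD8 T cells. The proteasome cuts the proteins, and in cells exposed to interferon the constitutive catalytic subunits Psmb5, Psmb6 and Psmb7 are exchanged for the immunoproteasome subunits Psmb8, Psmb9 and Psmb10, respectively. Tap1 and Tap2 form the transporter that moves the peptides into the endoplasmic reticulum, where tapasin (Tapbp) holds empty class I molecules at the transporter. B2m pairs with every classical heavy chain. Nlrc5 acts in the nucleus at class I promoters, and interferons induce much of the set. Fibroblasts express class I constitutively, at a level that interferon raises.

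In mm10, 7 of the 10 genes lay on chromosome 17, between positions 33919478 and 35267497, in the MHC: Tapbp, H2-K1, Psmb9, Tap1, Psmb8, Tap2 and H2-D1. B2m lay on chromosome 2 at 122147687 to 122153082, and Psmb10 and Nlrc5 on chromosome 8 at 105935728 to 105938392 and 94434335 to 94527272. The 250 bases before the RefSeq start site of 5 of these genes, on the gene's own strand (RefSeq, mm10), are printed to show which known class I promoter elements these genes share and which they do not. Capitals mark matches to any of 6 motifs searched on both strands: the interferon-stimulated response element (ISRE) core GAAANNGAA, the ISRE form of class I heavy chains GAANNGAAA, the GAS element, another interferon response motif, TTCNNNGAA, the kappa B core GGNNNTTCC, the X2 box TGACGC and the Y box ATTGG. The second ISRE form was added after the sequences had been seen.
B2m, chr2:122147437-122147686 (+): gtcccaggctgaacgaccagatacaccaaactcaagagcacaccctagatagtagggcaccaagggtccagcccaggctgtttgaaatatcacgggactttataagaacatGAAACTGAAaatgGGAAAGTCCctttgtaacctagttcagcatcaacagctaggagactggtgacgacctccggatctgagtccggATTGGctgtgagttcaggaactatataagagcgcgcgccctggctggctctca
H2-K1, chr17:34000348-34000597 (-): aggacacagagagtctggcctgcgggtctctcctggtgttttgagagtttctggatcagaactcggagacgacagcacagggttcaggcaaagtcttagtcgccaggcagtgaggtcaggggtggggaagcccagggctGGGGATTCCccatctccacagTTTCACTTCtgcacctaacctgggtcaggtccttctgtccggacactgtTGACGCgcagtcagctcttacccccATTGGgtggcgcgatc
H2-D1, chr17:35262844-35263093 (+): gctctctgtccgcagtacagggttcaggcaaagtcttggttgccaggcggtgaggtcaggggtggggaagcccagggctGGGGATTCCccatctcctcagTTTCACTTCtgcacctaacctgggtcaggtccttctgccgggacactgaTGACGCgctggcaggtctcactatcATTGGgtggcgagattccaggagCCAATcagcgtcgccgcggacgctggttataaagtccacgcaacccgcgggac
Tap1, chr17:34187306-34187555 (+): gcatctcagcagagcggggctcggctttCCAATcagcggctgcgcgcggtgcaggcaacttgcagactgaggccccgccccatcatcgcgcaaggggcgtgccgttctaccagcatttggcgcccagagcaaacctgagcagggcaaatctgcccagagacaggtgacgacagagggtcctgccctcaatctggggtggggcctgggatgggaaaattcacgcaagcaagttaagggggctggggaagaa
Psmb8, chr17:34197945-34198194 (+): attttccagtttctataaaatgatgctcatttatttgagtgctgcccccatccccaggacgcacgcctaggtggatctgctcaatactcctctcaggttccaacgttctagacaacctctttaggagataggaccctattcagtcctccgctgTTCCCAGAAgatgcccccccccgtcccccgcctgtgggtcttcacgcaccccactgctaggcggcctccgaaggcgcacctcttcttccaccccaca
Of the 10 genes, 8 had an entry in the promoter table. The search ran over 300 bases, from 250 before to 50 after each start, in these 8 windows and in all 32851 windows of the table. H2-K1 and H2-D1 both held the class I form of the ISRE, which 7.52% of all windows held, the X2 box, held by 7.40%, and the kappa B core, held by 18.5%. In H2-D1 the kappa B match lay at -171 to -163, the ISRE at -150 to -142, the X2 box at -101 to -96 and Y boxes at -76 to -72 and -53 to -49, counted from the start. The H2-K1 window held the same order, kappa B at -111 to -103, ISRE at -90 to -82 and X2 at -41 to -36. Its Y boxes lay at -16 to -12 and at 8 to 12, the latter after the start and beyond the bases printed. Over the 239 bases that aligned between the 2 windows, 211 (88.3%) were identical. The B2m window held an ISRE core, which 8.56% of all windows held, at -139 to -131, a kappa B core at -126 to -118 and a Y box at -53 to -49, and no X2 match. Psmb8 was the one window of the 8 with a GAS match, at -97 to -89, which 8.30% of all windows held. The Y box was in 6 of the 8 windows against 37.4% of all windows, and the Psmb10 window held no match to any of the 6. Tap1 and Psmb9 start 225 bases apart on opposite strands, so that their windows share 275 bases, and their Y box matches, counted in both windows, are the same bases. No 2 motif matches overlapped. A match is a description of these letters, not a site of binding.

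The 8 libraries had normalized totals of 16752800 to 18303000. The 2 libraries of a genotype correlated at 0.992 across genes in WT and in Tfam+/-Zbp1-/-, but at 0.973 in Tfam+/- and 0.975 in Zbp1-/-. Tfam, the gene with the lost allele, measured 629 and 610.1 normalized counts (WT), 278 and 365 (Tfam+/-), 675 and 471 (Zbp1-/-) and 424 and 375 (Tfam+/-Zbp1-/-). Zbp1 measured 7.34 and 3.19 (WT), 64.6 and 69.8 (Tfam+/-), 3.79 and 1.03 (Zbp1-/-) and 0.86 and 2.69 (Tfam+/-Zbp1-/-), so its WT level is too low to check the Zbp1-/- label. The libraries Tfam+/- replicate 1 and Zbp1-/- replicate 2 share a large pattern: a term common to both passed the test in 8669 of the 13267 genes tested, and in 8 of the 10 class I genes, where it ranged from -0.50 for B2m to 0.63 for Psmb10 on the log2 scale. Each comparison is therefore given from 3 fits: over all 8 libraries, over all 8 with this shared term, and over the 6 libraries left without the 2. In the fit of 6 libraries the single Tfam+/- and Zbp1-/- libraries are assumed to vary like the other 2 pairs. The p-values of this fit and of the fit with the shared term rest mostly on a spread estimated over all genes.

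Every test used limma on log2(normalized count + 1), a scale on which the fold changes of low genes come out too small. A call needed an adjusted p (Benjamini-Hochberg) under 0.05 over the 13267 genes with a mean of at least 10. All 10 class I genes passed this minimum. Psmb9 passed it only through Tfam+/- and Zbp1-/-, since its mean was 6.67 in WT and 9.15 in Tfam+/-Zbp1-/-, and counts and medians over the 10 genes are therefore descriptions. With 2 libraries against 2, an exact permutation test of a single gene cannot give a p below 0.333. A fit without 1 library leaves a genotype with 1 library and alters the pooled spread of all genes. A call lost or gained there need not mean that the gene's change altered. In these bulk samples, more or fewer cells of a type cannot be told apart from more or less RNA per cell.

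Divided by transcript length, B2m RNA stood far above the other class I genes in every genotype. In WT it measured 8023 ± 121 normalized counts per kb (SD, n = 2). H2-D1 followed at 471 ± 9.01 per kb, Tapbp at 347 ± 5.73 and H2-K1 at 346 ± 4.42, and these last 2 did not differ beyond their spread. Psmb10 measured 114 ± 11.3 per kb, Tap1 82.3 ± 1.75, Tap2 45.4 ± 6.57 and Psmb8 27.4 ± 6.34. Nlrc5 and Psmb9 were lowest, at 6.15 ± 0.206 and 4.93 ± 0.821 per kb. The constitutive subunits Psmb5, Psmb6 and Psmb7 measured 1836, 2278 and 1997 per kb in WT, far above the immunoproteasome subunits that replace them. In Tfam+/- the per-kb order changed at 2 places: H2-K1 at 753 stood above Tapbp at 562, and Psmb8 at 128 stood above Tap2 at 84.6.

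**Figure D1:**
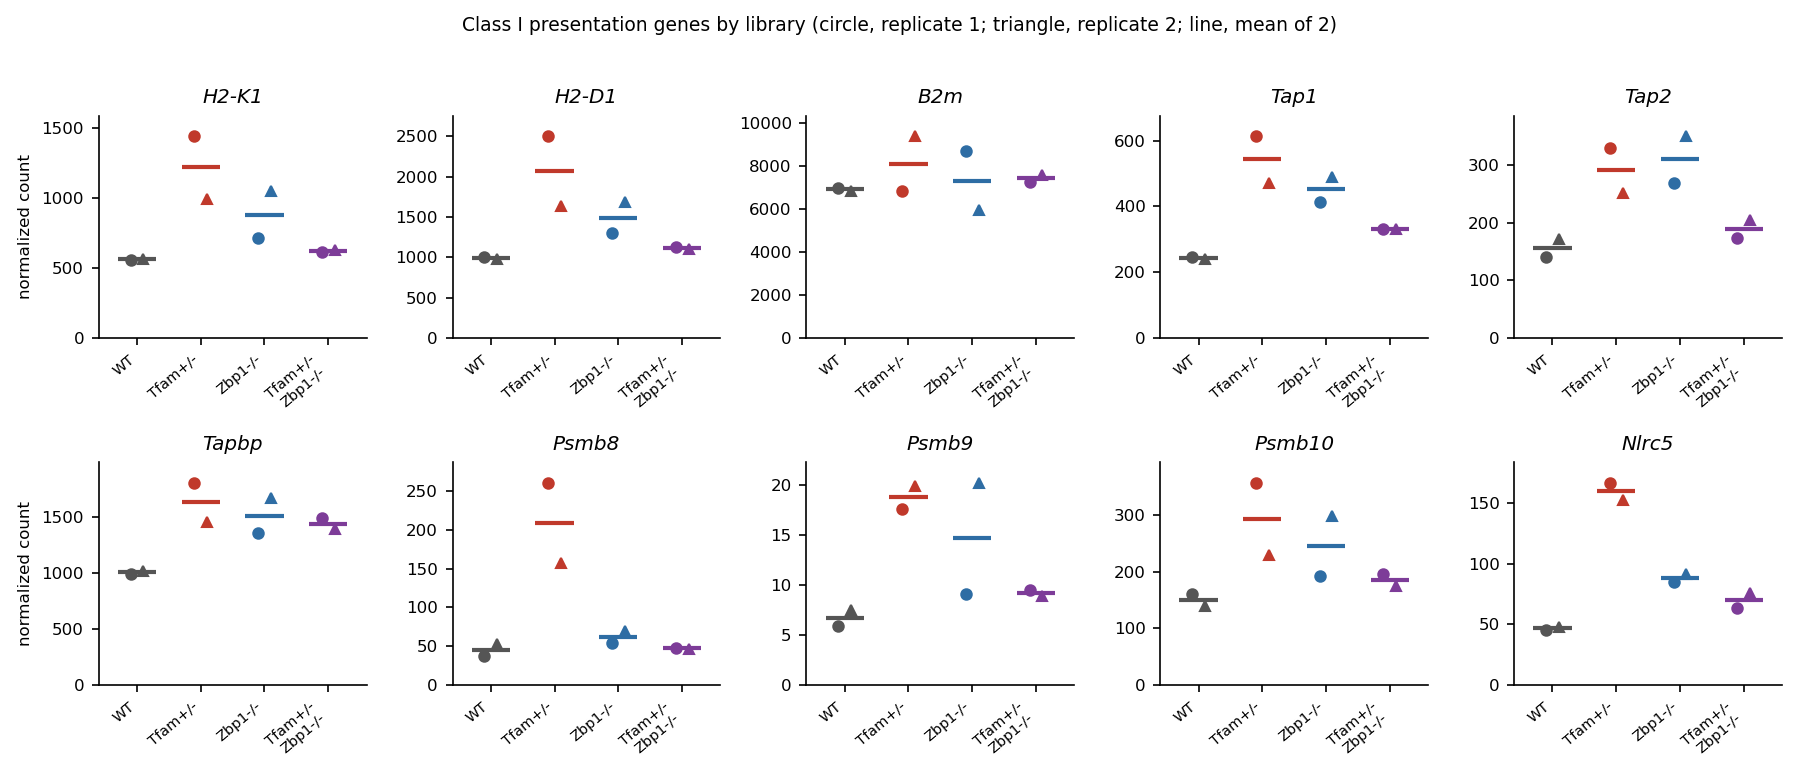
Normalized count of each of the 10 genes (y axis, linear, 1 panel a gene) in the 4 genotypes (x axis); circles are replicate 1, triangles replicate 2 and the line is the mean of the 2. In 9 panels both Tfam+/- libraries lie above both WT libraries, and B2m is the exception.

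Tfam+/- against WT compares the genotypes that differ by 1 Tfam allele where Zbp1 is present. Since the source of the libraries of a genotype is not given, genotype cannot be told apart from embryo or culture in any comparison. All 10 genes had a higher mean log2 value in Tfam+/-, and 3 rose past the test: Psmb8 by 4.52-fold, Nlrc5 by 3.38-fold and Tap1 by 2.21-fold. Of all genes tested, 0.565% were called higher. The median change of the 10 genes was 1.06 on the log2 scale, against -0.01 for all genes tested. In 9 of the 10, both Tfam+/- libraries were above both WT libraries, an order that 23.3% of all genes tested showed.

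Nlrc5 measured 45.5 and 47.7 normalized counts (WT), 167 and 153 (Tfam+/-), 85.2 and 91.3 (Zbp1-/-) and 63.6 and 75.7 (Tfam+/-Zbp1-/-). Both Tfam+/- libraries were the highest and both WT libraries the lowest, and no 2 genotypes overlapped. Nlrc5 rose in Tfam+/- by 1.76 ± 0.16 (log2 change ± SE; limma adjusted p = 0.0072). The rise was 1.70 ± 0.18 with the shared term (adjusted p = 1.4e-06), the Nlrc5 coefficient of that term itself being 0.11, with an adjusted p of 0.55. The call over all 8 libraries was lost without WT replicate 1 (1.72, adjusted p = 0.12) and without WT replicate 2 (1.79, adjusted p = 0.098).

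Of the immunoproteasome subunits, Psmb8, which carries the chymotrypsin-like site, measured 37.3 and 51.9 normalized counts (WT), 261 and 156 (Tfam+/-), 53.6 and 69.4 (Zbp1-/-) and 47.7 and 45.6 (Tfam+/-Zbp1-/-). The Tfam+/- libraries stood alone: their lower value was more than any other library's, while Tfam+/-Zbp1-/- lay inside the WT range. Psmb8 rose by 2.18 ± 0.29 (log2, limma adjusted p = 0.034), and by 1.90 ± 0.21 with the shared term (adjusted p = 2.8e-06). The call over all 8 libraries was lost without WT replicate 1 (1.94, adjusted p = 0.29), WT replicate 2 (2.41, 0.16), Tfam+/- replicate 1 (1.81, 0.097) or either Tfam+/-Zbp1-/- library (2.18, 0.11). Psmb9 is the subunit with the lowest counts, at 5.88 and 7.45 (WT), 17.6 and 19.9 (Tfam+/-), 9.11 and 20.2 (Zbp1-/-) and 9.46 and 8.84 (Tfam+/-Zbp1-/-). Its Zbp1-/- replicate 2 lay above both Tfam+/- libraries, and its change of 1.37 ± 0.40 in Tfam+/- passed in none of the 3 fits (adjusted p = 0.36, and 0.13 with the shared term). Psmb10, the subunit with the trypsin-like site, measured 160.2 and 139 (WT), 358 and 230.1 (Tfam+/-), 193 and 299 (Zbp1-/-) and 196 and 175 (Tfam+/-Zbp1-/-). The Tfam+/- and Zbp1-/- ranges overlapped. Its change of 0.94 ± 0.28 missed the threshold over all 8 libraries (limma adjusted p = 0.36) and passed with the shared term, at 0.62 ± 0.12 (0.0011).

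The transporter gene Tap1 measured 247 and 239 normalized counts (WT), 614 and 472 (Tfam+/-), 415 and 489 (Zbp1-/-) and 331 and 332 (Tfam+/-Zbp1-/-). WT was lowest, Tfam+/-Zbp1-/- stood between, and Tfam+/- overlapped Zbp1-/-. Tap1 rose in Tfam+/- by 1.14 ± 0.16 (log2, limma adjusted p = 0.038; 0.99 ± 0.08 and 6.3e-08 with the shared term). Without WT replicate 1 the Tap1 call was lost (1.17, adjusted p = 0.32), as it was without WT replicate 2 (1.12, 0.36), Tfam+/- replicate 1 (0.95, 0.097) and either Tfam+/-Zbp1-/- library (1.14, 0.14). Its partner Tap2 measured 140.2 and 172 (WT), 330.1 and 252 (Tfam+/-), 269 and 351 (Zbp1-/-) and 173 and 205 (Tfam+/-Zbp1-/-). Here the highest library was a Zbp1-/- one, and the change of 0.89 ± 0.21 in Tfam+/- was called with the shared term (0.70 ± 0.13, adjusted p = 0.00063) but not over all 8 libraries (0.21). Tapbp measured 993 and 1017 (WT), 1807 and 1453 (Tfam+/-), 1358 and 1665 (Zbp1-/-) and 1489.9 and 1389 (Tfam+/-Zbp1-/-). All 6 mutant libraries were above WT, and the 3 mutant genotypes overlapped. The Tapbp change in Tfam+/- was 0.69 ± 0.15 over all 8 libraries (adjusted p = 0.16) and 0.54 ± 0.05 with the shared term (2.4e-07).

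The heavy chains gave nearly 1 pattern. H2-K1 measured 556 and 566 normalized counts (WT), 1445 and 995 (Tfam+/-), 711 and 1049.9 (Zbp1-/-) and 616 and 627 (Tfam+/-Zbp1-/-). H2-D1 measured 1004 and 977 (WT), 2503 and 1638 (Tfam+/-), 1301 and 1681 (Zbp1-/-) and 1128 and 1103 (Tfam+/-Zbp1-/-). For both, WT was lowest and Tfam+/-Zbp1-/- next, with Tfam+/- and Zbp1-/- overlapping. Over the 8 libraries the 2 genes correlated at r = 0.993, as a description over libraries that share genotypes. Neither was called in Tfam+/- over all 8 libraries, H2-K1 at 1.09 ± 0.23 (limma adjusted p = 0.15) and H2-D1 at 1.03 ± 0.21 (0.14). Both rose with the shared term, by 0.82 ± 0.06 (4.6e-09) and 0.79 ± 0.06 (6.1e-09). Without Tfam+/- replicate 2, H2-D1 was called at 1.34 (adjusted p = 0.044). H2-K1, H2-D1 and the H2-Q and H2-T genes are near-identical in long stretches, and the sources used here do not say how reads that fit several were counted, so the split between them is uncertain.

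Without allowance for the shared term, B2m did not follow its heavy chains over the 8 libraries. It measured 6973 and 6826 normalized counts (WT), 6806 and 9388 (Tfam+/-), 8666 and 5948 (Zbp1-/-) and 7247 and 7571 (Tfam+/-Zbp1-/-). The 2 Tfam+/- libraries lay on either side of WT, as did the 2 Zbp1-/- libraries, and the lower library of each pair was one of the 2 that share the large pattern. Over all 8 libraries the B2m change in Tfam+/- was 0.21 ± 0.21 (limma adjusted p = 0.61), and -0.020 without Tfam+/- replicate 2. After allowing for the shared term, whose B2m coefficient was -0.50 ± 0.03, it rose by 0.46 ± 0.03 (adjusted p = 3.5e-09). That term had the opposite sign for H2-K1 (0.55) and H2-D1 (0.49). In the fit with it, B2m was called in the same direction as both heavy chains in every comparison, the interaction included. Across the 8 libraries, B2m correlated at r = 0.044 with the mean of the other 9 genes, whose own values against the other members ran from 0.845 for Tapbp to 0.974 for H2-K1.

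With the shared term, 9 of the 10 genes were called higher in Tfam+/-, with Psmb9 as the exception, against 7.39% of all genes tested. The fit of 6 libraries also called 9, against 6.98%. Both alternatives were chosen with earlier results of these data known. In a fit of the WT and Tfam+/- libraries alone, Nlrc5 (limma adjusted p = 0.055), Psmb8 (0.12) and Tap1 (0.17) missed the threshold.

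**Figure D2:**
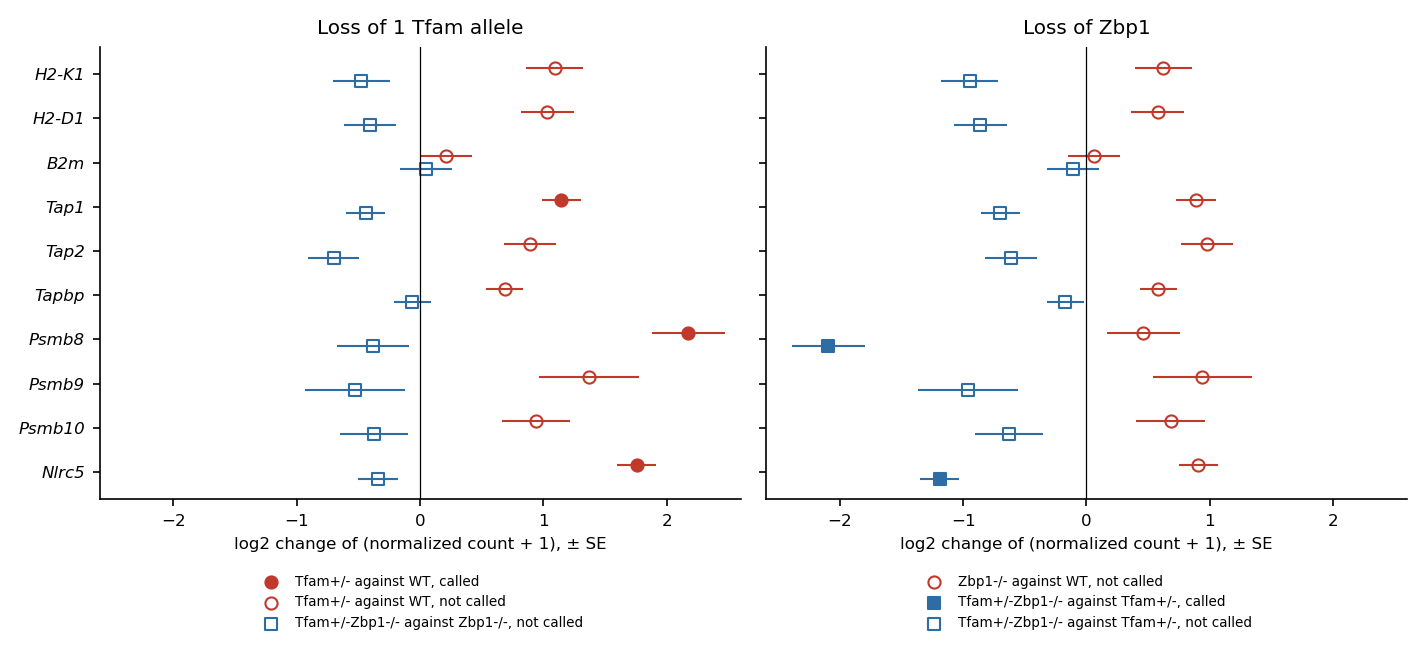
Log2 change with its SE for each gene over all 8 libraries (filled symbols are called). Left, loss of 1 Tfam allele with Zbp1 present (Tfam+/- against WT, red circles) and absent (Tfam+/-Zbp1-/- against Zbp1-/-, blue squares); right, loss of Zbp1 with both Tfam alleles (Zbp1-/- against WT, red circles) and with 1 (Tfam+/-Zbp1-/- against Tfam+/-, blue squares). On the left the red values run from 0.21 for B2m to 2.18 for Psmb8, while the blue values run from -0.70 for Tap2 to 0.04 for B2m.

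Zbp1-/- against WT shows the class I genes without Zbp1 and with both Tfam alleles, and shares its WT libraries with the comparison above. All 10 changes were above 0 in the deposited scaling, with B2m at 0.06 and, after TMM rescaling (trimmed mean of M-values, which sets libraries to a common centre), at -0.044. The median was 0.65, against 0.11 for all genes tested. None of the 10 was called by limma over all 8 libraries, where 0.897% of genes were called higher, and 7 of the 10 had an unadjusted p under 0.05, as did 2619 of the 13267 genes. Tap2 was at 0.98 ± 0.21 (limma adjusted p = 0.097), Nlrc5 at 0.91 ± 0.16 (0.063) and Tap1 at 0.89 ± 0.16 (0.064). Psmb9, at 0.94 ± 0.40 (0.26), rested on 1 library: it was at 0.41 without Zbp1-/- replicate 2 and at 1.48 without replicate 1. H2-K1 stood at 0.62 ± 0.23 and H2-D1 at 0.58 ± 0.21, with adjusted p-values of 0.22 each. Psmb8, with the largest change in Tfam+/-, was at 0.46 ± 0.29 here (0.39). In 9 of the 10 genes both Zbp1-/- libraries were above both WT libraries, B2m being the exception, and 42.1% of all genes tested showed this order. Tap1 was called without either single Tfam+/- library (0.89, adjusted p = 0.039 without replicate 1 and 0.038 without replicate 2), which alters the pooled spread and not the change.

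In the fit with the shared term, 8 of the 10 were called higher in Zbp1-/-, where 28.5% of all genes tested were called higher. Tap2 rose by 0.79 on the log2 scale (limma adjusted p = 8.6e-05), Nlrc5 by 0.85 ± 0.18 (0.0012) and Tap1 by 0.73 (1.8e-06). H2-K1 and H2-D1 rose by 0.35 and 0.33, B2m by 0.31 ± 0.03, Tapbp by 0.43 and Psmb10 by 0.37. Psmb8 at 0.19 ± 0.21 (adjusted p = 0.52) and Psmb9 at 0.72 (0.27) were not called. The fit of 6 libraries called 8 as well, against 27.2% of all genes.

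Tfam+/-Zbp1-/- against Tfam+/- compares cells without and with Zbp1 where 1 Tfam allele is lost, and reuses the Tfam+/- libraries of the first comparison. All 10 genes had a lower mean log2 value in Tfam+/-Zbp1-/-, with a median of -0.78 against 0.14 for all genes tested. Over all 8 libraries 2 fell past the test, Psmb8 by 2.09 ± 0.29 (limma adjusted p = 0.011) and Nlrc5 by 1.19 ± 0.16 (0.0093), where 2.32% of all genes were called lower. H2-K1 at -0.95 ± 0.23 (0.068), H2-D1 at -0.86 ± 0.21 (0.071) and Tap1 at -0.70 ± 0.16 (0.056) missed the threshold. In 8 of the 10 both Tfam+/-Zbp1-/- libraries were below both Tfam+/- libraries, against 13.5% of all genes tested, and B2m and Tapbp overlapped. Tapbp was at -0.17 over all 8 libraries (0.52) and -0.02 with the shared term (0.77), its 2 genotypes differing by less than the spread between libraries.

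Several of these calls were lost or gained without 1 library. The Psmb8 change stayed between -2.46 and -1.73 and that of Nlrc5 between -1.32 and -1.07 on the log2 scale. Without Tfam+/-Zbp1-/- replicate 1, Psmb8 at -2.12 (limma adjusted p = 0.10) and Nlrc5 at -1.07 (0.11) were no longer called, nor were they without replicate 2, at -2.06 (0.099) and -1.32 (0.070). Without Tfam+/- replicate 2, H2-K1 (-1.22, adjusted p = 0.038), H2-D1 (-1.17, 0.019) and Tap1 (-0.89, 0.029) were called too. H2-K1 was also called without either Zbp1-/- library (-0.95, 0.036). The shared-term fit called 8 genes lower, against 10.2% of all genes: Psmb8 by 1.82, Nlrc5 by 1.13, H2-K1 by 0.67, H2-D1 by 0.61, Tap1 by 0.54, Tap2 by 0.42, B2m by 0.36 and Psmb10 by 0.31, all as falls on the log2 scale. The fit of 6 libraries called 7, against 9.87%.

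Tfam+/-Zbp1-/- against Zbp1-/- compares the genotypes that differ by the Tfam allele where Zbp1 is absent. Over all 8 libraries 9 of the 10 changes were below 0, B2m at 0.04 being the exception, and the median was -0.39 against 0.02 for all genes tested. None was called by limma, where 0.309% of genes were called lower, and 2 of the 10 had an unadjusted p under 0.05, as did 1626 of the 13267 genes. The largest change was that of Tap2, at -0.70 ± 0.21 (limma adjusted p = 0.25). Nlrc5 was at -0.34 ± 0.16 (0.45) and Psmb8 at -0.38 (0.59). In 6 of the 10 both Tfam+/-Zbp1-/- libraries were below both Zbp1-/- libraries, against 23.3% of all genes tested; B2m, Tapbp, Psmb9 and Psmb10 overlapped. The shared-term fit called 5 lower, against 11% of all genes: Tap2 at -0.51 (0.0056), B2m at -0.21 (8.7e-05), H2-K1 at -0.20 (0.016), H2-D1 at -0.16 (0.045) and Tap1 at -0.29 (0.016). B2m and Tapbp changed sign between these fits, B2m from 0.04 to -0.21 and Tapbp from -0.06 to 0.088. Over 6 libraries 5 were called lower, against 10.8%.

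Against WT, Tfam+/-Zbp1-/- lay close by for most of the genes. The median change of the 10 was 0.29, against 0.12 for all genes tested. None was called by limma over all 8 libraries, where 0.897% of genes were called higher, and 3 of the 10 had an unadjusted p under 0.05, as did 1674 of the 13267 genes. The largest were Nlrc5 at 0.57 ± 0.16 (limma adjusted p = 0.19), Tapbp at 0.52 ± 0.15 (0.20) and Tap1 at 0.45 ± 0.16 (0.31). B2m at 0.10 and Psmb8 at 0.08 were above 0 in the deposited scaling and at -0.018 and -0.035 after TMM rescaling. In 9 of the 10 genes both libraries were above both WT libraries, Psmb8 overlapping, and 58.8% of all genes tested showed this order. The shared-term fit called 7 higher against 35.3% of all genes, and the fit of 6 libraries 7 against 37.1%, among them in the former Tapbp (0.52 ± 0.04, adjusted p = 3.7e-08), Tap1 (0.45, 0.00011) and Nlrc5 (0.57, 0.0084); Tap2, Psmb8 and Psmb9 were not. Neither library with the shared pattern enters this comparison, so the changes were identical in the 3 fits and only the pooled spread differed. The SE of B2m was 0.21 over all 8 libraries and 0.029 with the shared term. TMM rescaling moved the median of all genes from 0.11 to 0.01 in Zbp1-/- against WT, from 0.12 to 0.00 in this comparison and from 0.14 to 0.01 in Tfam+/-Zbp1-/- against Tfam+/-.

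The interaction term tests whether the change between genotypes that differ by 1 Tfam allele is unlike with and without Zbp1. It subtracts the change measured with Zbp1 (Tfam+/- against WT) from that measured without it (Tfam+/-Zbp1-/- against Zbp1-/-). All 10 values were below 0, with a median of -1.58 against 0.00 for all genes tested. Over all 8 libraries 2 passed, Nlrc5 at -2.10 ± 0.23 (limma adjusted p = 0.020) and Tap1 at -1.59 ± 0.23 (0.043), where 0.445% of all genes were called below 0. Nlrc5 changed by 1.76 in Tfam+/- against WT and by -0.34 in Tfam+/-Zbp1-/- against Zbp1-/-. For Tap1 these changes were 1.14 and -0.44. Psmb8 had the largest value, -2.56 ± 0.42, and missed the threshold (adjusted p = 0.062). Tap2 was at -1.59 ± 0.30 (0.086), H2-K1 at -1.57 ± 0.33 (0.11), H2-D1 at -1.44 ± 0.30 (0.11) and B2m at -0.17 ± 0.30 (0.72).

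The 2 interaction calls were not kept without most single libraries, though the values stayed below 0. Tap1 lost its call without any 1 library other than Tfam+/- replicate 2. It was at -1.61 without WT replicate 1 (limma adjusted p = 0.25), -1.57 without WT replicate 2 (0.27), -1.40 without Tfam+/- replicate 1 (0.070), -1.71 without Zbp1-/- replicate 1 (0.057), -1.47 without Zbp1-/- replicate 2 (0.11), -1.58 without Tfam+/-Zbp1-/- replicate 1 (0.28) and -1.59 without replicate 2 (0.27). Nlrc5 lost its call without WT replicate 1 (0.20) or 2 (-2.13, 0.16), Tfam+/- replicate 1 (-2.03, 0.058), Zbp1-/- replicate 2 (-2.05, 0.067) and Tfam+/-Zbp1-/- replicate 1 (-1.97, 0.22) or 2 (-2.22, 0.17). Without Tfam+/- replicate 2, H2-D1 (-1.74, 0.037) and Psmb8 (-2.92, 0.037) were called. With the shared term 9 of the 10 were called below 0, against 8.43% of all genes, from -0.45 ± 0.08 for Tapbp and -0.67 ± 0.05 for B2m to -1.99 ± 0.28 for Nlrc5 and -2.00 ± 0.33 for Psmb8. Psmb9 at -1.45 ± 0.75 was not (adjusted p = 0.22). The fit of 6 libraries also called 9, against 9.14%, but gives the same interaction estimates as the shared term by construction, and is no separate support. With a prior that does not follow the mean expression, the Tap1 interaction over all 8 libraries missed the threshold (adjusted p = 0.052).

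**Figure D3:**
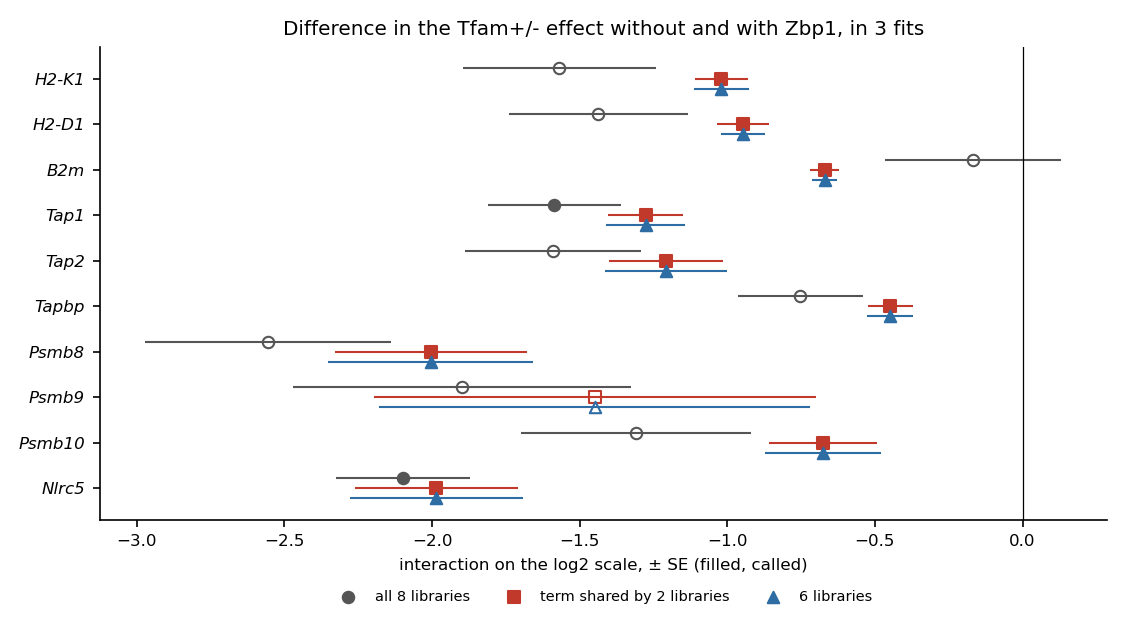
Interaction term with its SE (log2) for each gene in the 3 fits, over all 8 libraries, with a term shared by Tfam+/- replicate 1 and Zbp1-/- replicate 2, and over the 6 libraries left without them; filled symbols are called. All values lie below 0, with 2 called over all 8 libraries and 9 in each of the other fits, and Psmb9 is called in no fit.

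Each immunoproteasome subunit was set against the constitutive subunit it replaces, as a percent of that subunit's normalized count in the same library, which cancels a library's scaling. Psmb8 against Psmb5 was 2.28% and 3.11% (WT), 10.99% and 9.01% (Tfam+/-), 3.50% and 3.18% (Zbp1-/-) and 2.68% and 2.56% (Tfam+/-Zbp1-/-). The 2 Tfam+/- libraries were far above the other 6, which lay between 2.28% and 3.50%. Psmb9 against Psmb6 was 0.322% and 0.412% (WT), 0.750% and 1.01% (Tfam+/-), 0.490% and 0.818% (Zbp1-/-) and 0.452% and 0.418% (Tfam+/-Zbp1-/-). Psmb10 against Psmb7 was 6.86% and 6.07% (WT), 13.5% and 9.57% (Tfam+/-), 8.49% and 11.8% (Zbp1-/-) and 7.99% and 6.79% (Tfam+/-Zbp1-/-). For these 2 pairs the Tfam+/- and Zbp1-/- libraries overlapped. Psmb5, Psmb6 and Psmb7 themselves were at 0.30 ± 0.21, 0.24 ± 0.16 and 0.12 ± 0.11 in Tfam+/- against WT (log2, limma adjusted p-values of 0.56, 0.56 and 0.58), and none was called with the shared term. The ratios are of normalized counts, not per length and not of protein.

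**Figure D4:**
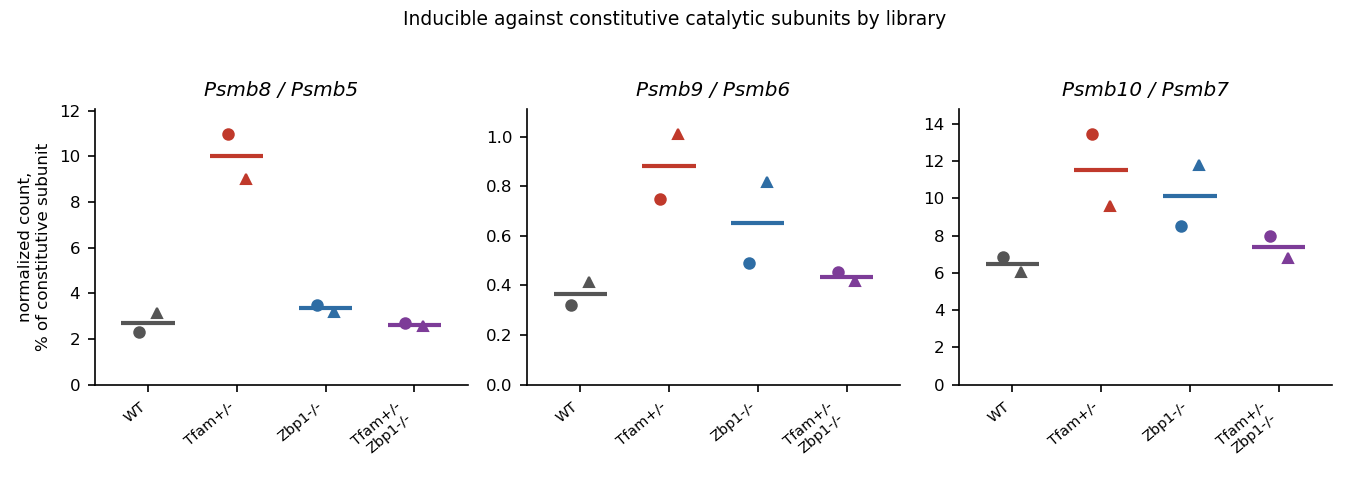
Normalized count of each immunoproteasome subunit as a percent of its constitutive counterpart (y axis, 1 panel a pair) in each library (circles replicate 1, triangles replicate 2, line the mean of the 2). Psmb8 against Psmb5 averages 10.0% in Tfam+/- and between 2.62% and 3.34% in the other 3 genotypes.

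Other genes of the pathway were taken from lists chosen by role. Of 29 class I heavy chain genes outside the 10, 28 were in the table and 7 were tested, and 6 of the 7 were above 0 in Tfam+/- against WT, with a median of 0.90. H2-Q4, a non-classical heavy chain, was the 1 called, against 0.565% of all genes called higher. It measured 71.2 and 68.8 normalized counts (WT), 321 and 219.7 (Tfam+/-), 116 and 173 (Zbp1-/-) and 101 and 101 (Tfam+/-Zbp1-/-), so that Tfam+/- stood above every other library. It rose in Tfam+/- by 1.91 ± 0.25 (limma adjusted p = 0.028), fell from Tfam+/- to Tfam+/-Zbp1-/- by 1.39 ± 0.25 (0.026), and had an interaction of -2.39 ± 0.35 (0.047). With the shared term 5 of the 7 heavy chains were called higher in Tfam+/-, against 7.39% of all genes. The H2-Q4 rise lost its call without WT replicate 1 (1.93, adjusted p = 0.26) or 2 (1.88, 0.27), Tfam+/- replicate 1 (1.64, 0.098) or either Tfam+/-Zbp1-/- library (1.91, 0.10). Its fall lost the call without any of these 5 libraries, at -1.39 to -1.11 (0.071 to 0.18), and its interaction without these 5 or Zbp1-/- replicate 2, at -2.42 to -2.10 (0.089 to 0.28). The H2-Q4 interaction also missed the threshold with no minimum (0.067), a minimum mean of 50 (0.052), a prior without trend (0.052) and the replicate number as a block (0.17). By limma adjusted p, the H2-Q4 rise missed it with the block (0.11) and with only the genotypes compared (0.081). The fall from Tfam+/- to Tfam+/-Zbp1-/- missed it with the block (0.074).

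No other proteasome gene of the lists passed the test over all 8 libraries. By limma over all 8 libraries, none of the 6 proteasome activator and inhibitor genes, the 3 constitutive catalytic subunits, the 11 other 20S subunits tested, the 21 subunits of the 19S particle that feeds proteins in, or the 5 assembly chaperones was called in Tfam+/- against WT. Their medians ran from 0.10 for the other 20S subunits to 0.24 for the constitutive catalytic ones. Psme2 and Psme1, which form the interferon-inducible activator, were at 0.54 ± 0.20 (adjusted p = 0.50) and 0.36 ± 0.21 (0.56). Of the 19S subunits Psmd8 had the largest value, at 0.40, and of the chaperones Psmg4, at 0.37. Of 14 loading and peptide-trimming genes none was called, and the median was -0.04, with Lnpep at -0.69 and Tpp2 at -0.46. With the shared term 1 activator was called higher, Psme2 at 0.31 (limma adjusted p = 0.00056). So were 1 of the other 20S subunits, 5 of the 19S subunits and 3 loading genes, where 7.39% of all genes were called higher. In that fit 1 loading gene was called lower, where 8.2% of all genes were.

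**Figure D5:**
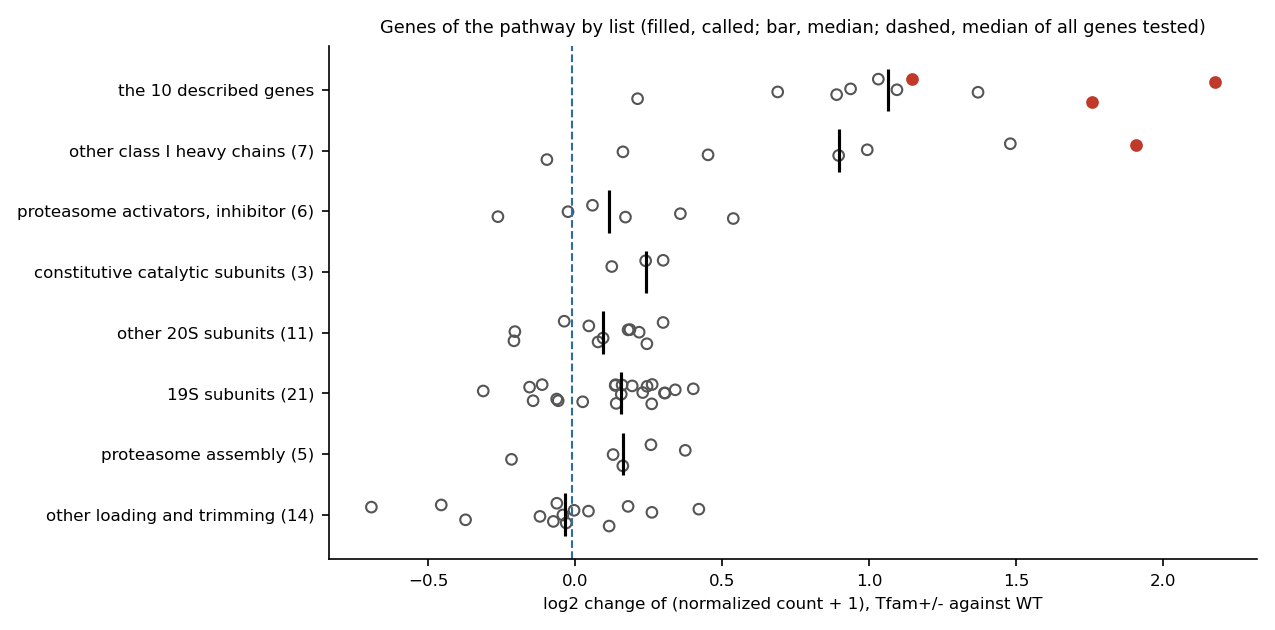
Log2 change in Tfam+/- against WT over all 8 libraries for each gene tested (points, filled where called), by list of pathway genes; bars are list medians and the dashed line is the median of all genes tested. The median of the 10 class I genes is 1.06 and that of the other class I heavy chains 0.90, while the other lists have medians from -0.04 to 0.24.

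Markers of other cells moved with these genotypes, and their part in the class I results was not tested. The 14 macrophage and leukocyte markers, all 14 above 0, summed to 5998 to 6043 normalized counts (WT), 7051 to 8428 (Tfam+/-), 3854 to 3864 (Zbp1-/-) and 3059 to 3063 (Tfam+/-Zbp1-/-). Of these, 13 were called lower in Tfam+/-Zbp1-/- against Tfam+/- by limma over all 8 libraries, against 2.32% of all genes. In Tfam+/- against WT, 0 were called over all 8 libraries, 13 of the 14 being above 0, and 7 were called higher with the shared term, against 7.39% of all genes. In Tfam+/- this sum and the class I genes other than B2m were both above WT, and both had lower means in Tfam+/-Zbp1-/- than in Tfam+/-. In Zbp1-/- the sum was below WT, while the class I genes other than B2m were above WT. In Tfam+/-Zbp1-/- the sum was also below WT, and the class I genes other than Psmb8 were above it. The 10 markers of antigen-presenting cells with class II summed to 75.6 to 79.2 in WT, 82.7 to 135 in Tfam+/-, 93.7 to 123 in Zbp1-/- and 81.7 to 87.5 in Tfam+/-Zbp1-/-. The 2 of them high enough to be tested, H2-DMa and H2-DMb1, were above 0 in Tfam+/- (0.18 and 0.54) and in Zbp1-/- (0.48 and 0.58) against WT on the log2 scale, and neither was called; with the shared term H2-DMa in Tfam+/- was at -0.15. Among the markers too low to be tested, Cd74 stayed between 0.97 and 11.2, Ciita was at 0 in 6 libraries and Flt3 at 0 in 7. They were named after their values were seen, and the rest are not given singly. The 10 fibroblast markers, all above 0, summed to 534970 to 536536 in WT, 500519 to 605784 in Tfam+/-, 629360 to 737087 in Zbp1-/- and 567142 to 574248 in Tfam+/-Zbp1-/-. Skeletal muscle markers summed to 1056 to 1095 in WT, 1242 to 1765 in Tfam+/-, 663 to 933 in Zbp1-/- and 604 to 623 in Tfam+/-Zbp1-/-. Epithelial markers also had their highest sums in Tfam+/-, at 326 to 493, against 261 to 284 in WT, 291 to 380 in Zbp1-/- and 186 to 187 in Tfam+/-Zbp1-/-, and 2 of the 3 tested were called lower in Tfam+/-Zbp1-/- than in Tfam+/-. Endothelial markers gave 341 to 363 (WT), 401 to 467 (Tfam+/-), 274 to 321 (Zbp1-/-) and 321 to 340 (Tfam+/-Zbp1-/-). Neural crest markers were highest in Zbp1-/-, at 322 to 340, against 157 to 209 in WT, 149 to 175 in Tfam+/- and 123 to 156 in Tfam+/-Zbp1-/-.

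Taken as the mean of their centred log2 values, the 10 genes stood at -0.57 and -0.48 (WT), 0.76 and 0.45 (Tfam+/-), -0.03 and 0.32 (Zbp1-/-) and -0.23 and -0.22 (Tfam+/-Zbp1-/-). The 5 other genes whose log2 values followed this mean most closely over the 8 libraries were Agrn (r = 0.995), Uba7 (0.988), Ifitm3 (0.987), Bdh1 (0.975) and Ddx24 (0.975). They were chosen for this likeness, so their levels are a description. Agrn, which encodes an extracellular matrix proteoglycan, measured 1219 and 1228 normalized counts (WT), 3639 and 2799 (Tfam+/-), 2068 and 2635 (Zbp1-/-) and 1627 and 1599.6 (Tfam+/-Zbp1-/-). Uba7, the activating enzyme of the ubiquitin-like protein Isg15, measured 72.5 and 71.3 (WT), 244 and 161 (Tfam+/-), 124 and 159 (Zbp1-/-) and 90.2 and 104 (Tfam+/-Zbp1-/-). Ifitm3, an interferon-inducible membrane protein that restricts virus entry, measured 3011 and 2882 (WT), 5675 and 4865 (Tfam+/-), 3962 and 4239 (Zbp1-/-) and 3455 and 3404 (Tfam+/-Zbp1-/-). In all 3 genes Tfam+/- was highest and WT lowest, with Zbp1-/- above Tfam+/-Zbp1-/-.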

How the data were processed

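The 8 RNA sequencing libraries of MEFs were analysed from 1 deposited table. RNA was isolated with a Quick-RNA microprep kit and made into Illumina libraries, per the labels' protocols. Reads were aligned to mm10 with its RefSeq genes by the STAR algorithm of RNAseq Alignment in BaseSpace and compared with RNA-seq Differential Expression, per the series' design text. STAR 2.6.1a and Salmon appear in the submitters' processing notes. The values are the authors' deposited normalized signal (normalized counts), never negative and not whole. The sources used here do not give how reads were counted and scaled or whether strand was used. Only 22.2% to 35% of low values lay within 0.01 of whole reads, so whole reads were not recovered and no test of counts was run. Depth came out at 15225437 to 19109736 reads if the commonest low value of a library is taken as 1 read. Since few low values fitted whole reads, this estimate is rough. Totals and genes above 0 (16051 to 16261) were similar between libraries. Precision is limited by 2 libraries a genotype and, for low genes such as Psmb9, by depth.

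limma 3.58.1 in R 4.3.3 fitted the 4 genotypes together on log2(value + 1), with a prior following mean expression (4 residual and 2.77 prior degrees of freedom), for the 13267 genes with a mean of at least 10. The fit with the shared term had 3 residual and 15.1 prior degrees of freedom, and that of 6 libraries 2 and 14.6. Tests were two-sided, with Benjamini-Hochberg adjustment over all genes. The procedure was tested on simulated data. Alternatives were pseudocounts of 5 and 0.1, no minimum, a minimum of 50, TMM rescaling (trimming 30% of ratios and 5% of means), a prior without trend, the replicate number as a block, only the genotypes compared, each library left out, a term shared by Tfam+/- replicate 1 and Zbp1-/- replicate 2, and the 6 libraries without them. Replicate numbers did not pair the libraries, since deviations of same-numbered libraries correlated at -0.70 to 0.06.

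Levels per kb used the longest protein-coding transcript of GENCODE vM21. Promoters came from RefSeq (mm10), and the first of the H2-K1 windows was used, whose start lies inside the gene's span of 33996012 to 34000619. Figures were drawn with matplotlib 3.10.9, and promoters aligned with Biopython 1.88. The genes named were all 10 class I genes, Psmb5, Psmb6, Psmb7, Tfam, Zbp1, for each list up to 4 genes called in Tfam+/- against WT or else the 2 largest changes, and the 5 genes closest to the mean of the 10. Marker genes of antigen-presenting cells and, in the closing section, 6 low or differently ordered heavy chains were named after their values were seen. A further list of pathway genes is not reported here. The 10 genes and all lists were chosen with earlier results of these data known.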

Additional observations from a re-analysis of the deposited data

Results flagged for a closer look

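For 2 of the 10 genes, the change from WT to Tfam+/- differed from that from Zbp1-/- to Tfam+/-Zbp1-/-. These calls came from the interaction test over all 8 libraries. The interaction was -1.59 for Tap1 and -2.10 for Nlrc5 on the log2 scale. Both calls were lost without most single libraries. Without any 1 library, Tap1 stayed between -1.78 and -1.40 and Nlrc5 between -2.22 and -1.97.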

How the results depend on the processing

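Pseudocounts of 5 and 0.1 and a minimum mean of 50 left the number of class I genes called in each comparison as it was, and TMM rescaling changed it only in Tfam+/-Zbp1-/- against Tfam+/-, from 2 to 3. In Tfam+/- against WT, 3 genes were called; the count was 1 with the replicate block, 9 with the shared term, 9 over 6 libraries, 0 with only the genotypes compared, and 0 to 4 without any 1 library. In Zbp1-/- against WT, 0 became 1 with the prior without trend (Nlrc5), 8 with the shared term and 8 over 6 libraries, and 0 to 1 without any 1 library. In Tfam+/-Zbp1-/- against WT, 0 became 7 with the shared term, 7 over 6 libraries and 7 with only the genotypes compared, and stayed at 0 without any 1 library. In Tfam+/-Zbp1-/- against Tfam+/-, 2 became 8 with the shared term, 7 over 6 libraries, and 0 to 5 without any 1 library. In Tfam+/-Zbp1-/- against Zbp1-/-, 0 became 5 with the shared term and 5 over 6 libraries, and stayed at 0 without any 1 library. For the interaction, 2 became 1 without a minimum, 1 with the prior without trend, 0 with the replicate block, 9 with the shared term, 9 over 6 libraries, and 0 to 4 without any 1 library. The replicate block, whose numbers do not pair the libraries, changed no other count. Several settings also moved the number of all genes called in either direction, so a changed count need not be particular to class I genes. With the replicate block this number went from 88 to 0 for the interaction and from 97 to 28 in Tfam+/- against WT. With the shared term it went from 183 to 5634 in Tfam+/-Zbp1-/- against WT. For only the genotypes compared it is not given here, so those class I counts cannot be set against all genes. A count test on whole reads, listed as an alternative, was not run, since whole reads were not recovered.

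Signs turned for 4 genes. B2m ran from -0.020 to 0.44 without any 1 library in Tfam+/- against WT, from -0.21 to 0.33 in Zbp1-/- against WT, from -0.34 to 0.12 in Tfam+/-Zbp1-/- against Tfam+/-, from -0.23 to 0.32 in Tfam+/-Zbp1-/- against Zbp1-/-, and from -0.44 to 0.10 in the interaction. With TMM rescaling B2m was at -0.044 in Zbp1-/- against WT and at -0.018 in Tfam+/-Zbp1-/- against WT. In the last comparison Psmb8 was at -0.035 with TMM and ran from -0.15 to 0.32 without any 1 library. In Tfam+/-Zbp1-/- against Zbp1-/-, B2m was at -0.21 with the shared term and -0.23 over 6 libraries, Tapbp at 0.088 and 0.083 (-0.21 to 0.083 without any 1 library), and Psmb9 at 0.0055 over 6 libraries (-1.06 to 0.0055 without any 1 library). The cause was not tested. Psmb9, at 5.88 to 20.2 normalized counts a library, and H2-Q and H2-T genes near 0 are limited by depth.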

Other observations

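Several non-classical class I heavy chains were too low for the test and are given as values. H2-T24 measured 17.4 and 9.03 normalized counts in Tfam+/-, and between 0.98 and 4.76 in the other 6 libraries. H2-T10 measured 11.1 and 4.96 in Tfam+/- and 11.1 and 9.67 in Zbp1-/-, against 0 and 1.85 in WT and 0 and 0.98 in Tfam+/-Zbp1-/-. H2-Q7 measured 12.1 and 3.58 in Tfam+/-, 1.85 and 11.9 in Zbp1-/-, 2.68 and 0 in WT, and 0 and 3.17 in Tfam+/-Zbp1-/-. Of the tested heavy chains outside the 10, H2-T22, Mr1 and Cd1d1 did not keep the order of genotype means seen for H2-K1 and H2-D1. H2-T22 measured 328 and 310.5 (WT), 375 and 509 (Tfam+/-), 291 and 230.2 (Zbp1-/-) and 297 and 254 (Tfam+/-Zbp1-/-), with Zbp1-/- below WT. Mr1, which presents vitamin B metabolites, and Cd1d1, which presents lipids, had their highest means in Tfam+/-Zbp1-/-, at 185 and 185 and at 109 and 124, against 140.0 and 172 and 102 and 90.1 in Tfam+/-. These genes were chosen after their values were seen, and near-identical copies make the counts of the H2-Q and H2-T genes uncertain.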
